A study of Homo sapiens with 60 samples.

Results

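HepG2, an established human liver cancer line that still makes many hepatocyte proteins, was given the hot-water extract of processed aconite root (Aconiti Lateralis Radix Preparata) or of bupleurum root (Bupleuri Radix) for 24 h, each at 20 µg/mL, the lowest dose of the study. The labels put 3 libraries in each of these groups, so the comparison rests on 6 of the 60 libraries of the series. The 6 libraries are defined by their labelled extract and dose, and the codes in their titles begin with the same number. The other libraries used here are the same extracts at 100 and 500 µg/mL, 4 further extracts at 20 µg/mL (Cimicifugae Rhizoma, Citri Unshius Pericarpium, Yijung-tang and Banhasasim-tang), and vehicle (0.1% DMSO), with 3 libraries in each group. The first part of the code in each title is taken here as a set. It is 6 for Aconiti and Bupleuri, 5 or 7 for the other 4 extracts and B1 for the vehicle. The titles do not say what this code stands for, and all of them also carry the word BatchB. Set and treatment therefore cannot be told apart in any difference from vehicle or from those 4 extracts. Nothing in the labels says that the 3 libraries of a group came from separate cultures, so the spread between libraries may be partly technical. Each p-value and standard error (SE) rests on the spread within groups over 57 replicated libraries, not over these 6 alone.

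The aryl hydrocarbon receptor (AhR) is a ligand-activated transcription factor that waits in the cytosol with a chaperone complex, enters the nucleus with its partner ARNT when a planar aromatic ligand binds, and switches on genes of xenobiotic metabolism, above all the cytochrome P450 gene CYP1A1. NRF2 is a transcription factor held at low level by KEAP1, and electrophiles or oxidants release it to raise enzymes of glutathione synthesis, thioredoxin reduction and quinone detoxification. In liver cells both programmes serve the handling of plant compounds and drugs, and some genes, such as NQO1, answer to both.

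The 6 libraries held between 23068667 and 30451640 expected counts. HepG2 and hepatocyte markers were all detected, and their summed level was 41940 to 43681 CPM (counts scaled to library size) with Aconiti and 42328 to 45242 CPM with Bupleuri. Mitochondrially encoded genes took 9.83 to 10.8% of counts with Aconiti and 9.07 to 9.97% with Bupleuri. The fibroblast genes COL1A2 and DCN and the leukocyte gene CD3E were at 0 in all 6 libraries. PTPRC was at 0 in all but 1 Bupleuri library. Other members of the marker lists were detected. Summed leukocyte markers were at 1042 to 1146 CPM with Aconiti and 1158 to 1209 CPM with Bupleuri. Non-hepatic epithelial markers summed to 367 to 391 CPM with Aconiti and 360 to 378 CPM with Bupleuri. Fibroblast markers summed to 8.06 to 8.98 CPM with Aconiti and 10.7 to 11.7 CPM with Bupleuri. Endothelial markers summed to 4.56 to 4.94 CPM with Aconiti and 4.60 to 5.08 CPM with Bupleuri.

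At 20 µg/mL, Aconiti and Bupleuri differed in few genes, and by far the largest difference among well-measured genes was in CYP1A1, which was about 11.4-fold higher with Aconiti. Of 16093 genes tested with edgeR's quasi-likelihood test, 82 passed a Benjamini-Hochberg adjusted p of 0.05 (0.51%). Of these, 56 were higher with Aconiti (0.348%) and 26 were lower (0.162%). Most differences were small: the median log2 fold change was 0.30 over the 56 and -0.29 over the 26, and 46 of the 56 and 21 of the 26 lay under 0.5 in size. CPM did not overlap between the 3 and 3 libraries in 55 of the 56 higher and 25 of the 26 lower genes, beside 7.94% and 7.39% of all genes without overlap in those directions. The number of calls depends on every library: it was 46, 55 and 45 without Aconiti library 1, 2 or 3, and 38, 52 and 56 without Bupleuri library 1, 2 or 3. With only the 6 libraries filtered, scaled and fitted, it was 38 of 14958 genes tested, and 26 of the 38 were among the 82. Under all 15 alternatives, 15 of the 82 genes were called, 13 higher and 2 lower.

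CYP1A1, the P450 enzyme that oxidises polycyclic aromatic compounds and is the most used readout of AhR activity, stood at 175.6, 113.2 and 108.3 CPM in the Aconiti libraries, against 12.6, 11.5 and 10.8 CPM in the Bupleuri libraries. All 3 Aconiti libraries were far above every Bupleuri library, and Aconiti library 1 was the highest. The log2 fold change was 3.50 ± 0.11 (SE, n = 3 each; adjusted p = 3.31e-29) and ranged between 3.24 and 3.62 when any 1 library was left out. The Bupleuri level was close to that of cells without this extract: CYP1A1 averaged 132.4 ± 37.5 CPM with Aconiti and 11.6 ± 0.9 CPM with Bupleuri, beside 19.8 ± 1.7 CPM with Cimicifugae, 11.5 ± 0.5 with Citri, 10.98 ± 0.78 with Yijung-tang, 10.9 ± 0.5 with Banhasasim-tang and 12.6 ± 1.5 with vehicle (SD, n = 3 each). Against vehicle the log2 fold change was 3.38 with Aconiti (adjusted p = 2.37e-28) and -0.11 with Bupleuri (adjusted p = 0.596). With dose, CYP1A1 went on to 510.4 ± 19 CPM with Aconiti and 14.4 ± 1.4 CPM with Bupleuri at 100 µg/mL, and to 989 ± 16 CPM with Aconiti and 34.0 ± 1.5 CPM with Bupleuri at 500 µg/mL.

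**Figure D1:**
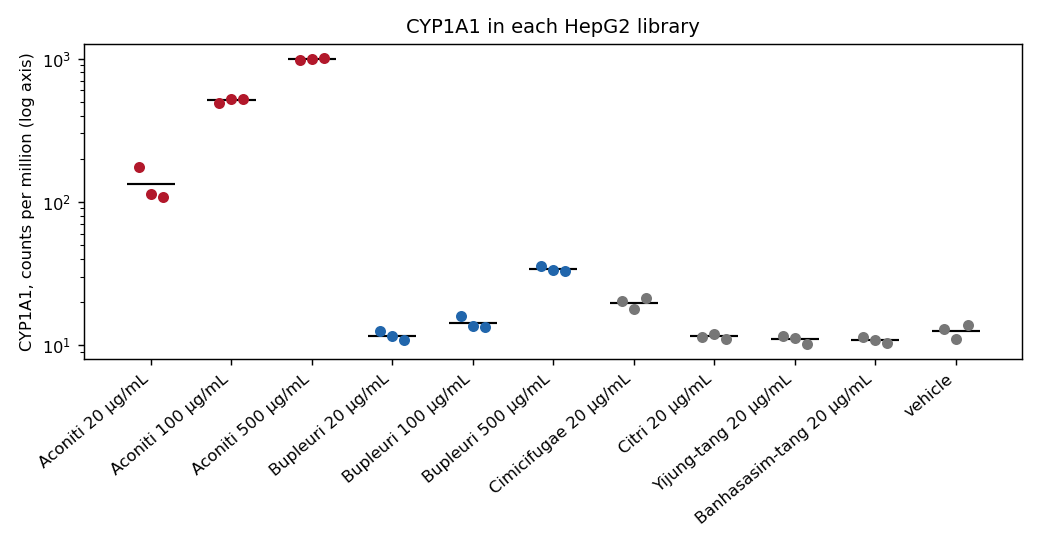
CYP1A1 in CPM (log axis) in each library of 11 groups, with the group mean as a line and n = 3 per group; red points are Aconiti and blue points Bupleuri at 3 doses, grey points are the other extracts at 20 µg/mL and vehicle. The 3 Aconiti 20 µg/mL libraries lie between 108.3 and 175.6 CPM, while the Bupleuri 20 µg/mL libraries and vehicle lie near 12 CPM.

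The 250 bases before the start of CYP1A1 are shown because the gene carries the largest difference among well-measured genes of this comparison. They span chr15:74725529-74725778 on the minus strand of GRCh38.p14 (RefSeq). Capitals mark the only match, on either strand, to GCGTG, the core that AhR and ARNT bind.
CYP1A1: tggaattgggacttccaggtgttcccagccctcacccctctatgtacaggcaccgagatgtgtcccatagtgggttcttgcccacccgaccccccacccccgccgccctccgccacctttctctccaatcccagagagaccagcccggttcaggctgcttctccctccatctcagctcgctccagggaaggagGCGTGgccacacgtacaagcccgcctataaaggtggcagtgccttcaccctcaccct
The match starts 57 bases before the transcription start. The same 5 letters occur on one strand or the other in 36.5% of all 35116 promoter windows of RefSeq (from 250 bases before to 50 after a start), so a match is a description and not a site.

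Other AhR targets moved with CYP1A1 in part. Of 18 listed AhR targets, 12 were tested, and 4 were higher (CYP1A1, CYP1A2, ALDH3A1 and NQO1; 0.348% of all genes) and none lower at 20 µg/mL. By sign 11 of the 12 were positive, and 7 had no overlap of CPM and were higher with Aconiti, beside 7.94% of all genes. All gene lists were chosen with earlier results of these data known, so shares within a list are descriptive and carry no test. The median log2 fold change over the 12 was 0.13, beside -0.00246 over all genes tested. At 100 and at 500 µg/mL, 9 of the 12 were higher with Aconiti and 1, EDN1, was lower, where 14.4% and 23.5% of all genes were called.

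CYP1A2, the P450 next to CYP1A1 that metabolises caffeine and aromatic amines, was barely expressed, with 7, 7 and 15 reads in the Aconiti libraries against 2, 0 and 0 reads in the Bupleuri libraries. The summed reads per library total differed by a ratio of 14.6, with an exact 95% interval from 3.71 to 127 that covers counting error only. The edgeR adjusted p was 0.00473. The call was lost without Aconiti library 3, without Bupleuri library 3 and by DESeq2. ALDH3A1, an aldehyde dehydrogenase, was also low: it stood at 1.65, 1.70 and 1.53 CPM with Aconiti against 1.03, 0.77 and 0.74 CPM with Bupleuri. Its log2 fold change was 0.92 ± 0.23 (SE; adjusted p = 0.045), the groups did not overlap, and the call was lost whichever 1 of the 6 libraries was left out. It reached 2.12 at 100 µg/mL (adjusted p = 6.51e-10) and 2.12 at 500 µg/mL (adjusted p = 1.86e-11).

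AHRR, the AhR repressor that feeds back on the receptor, did not pass the test at 20 µg/mL. Its libraries held 39, 26 and 15 reads with Aconiti and 20, 16 and 21 reads with Bupleuri, which overlap (log2 fold change 0.54 ± 0.25 SE, adjusted p = 0.548). The log2 fold change of AHRR ran from 0.06 to 0.87 when 1 library was left out. At 100 µg/mL its log2 fold change was 1.67 (adjusted p = 2.08e-07) and at 500 µg/mL 3.32 (adjusted p = 1.29e-18). TIPARP, the ADP-ribosyltransferase that is another feedback target, stood at 23.6, 23.7 and 21.6 CPM with Aconiti and 23.7, 22.8 and 21.3 CPM with Bupleuri (log2 fold change 0.02 ± 0.06 SE, adjusted p = 0.958). CYP1B1 was too low to test, with 0, 2 and 3 reads with Aconiti and 1, 2 and 3 reads with Bupleuri.

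Of 6 listed genes for the receptor and its partners none was called, which is near the 0.51% of all genes. AHR stood at 52.3, 48.8 and 47.9 CPM with Aconiti and 50.9, 48.2 and 46.3 CPM with Bupleuri, which overlap. The log2 fold changes were 0.03 ± 0.05 (SE; adjusted p = 0.922) for AHR and 0.05 ± 0.05 (SE; adjusted p = 0.866) for ARNT. The sign for AHR and TIPARP turned when single libraries were left out. At 500 µg/mL AHR was higher with Aconiti, by 0.39 (adjusted p = 1.02e-07).

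NRF2 targets formed the longest row of called genes. Of 24 tested, 9 were higher with Aconiti (37.5%, against 0.348% of all genes) and none lower: OSGIN1, AKR1B10, NQO1, GCLM, TXNRD1, SRXN1, EPHX1, TKT and GSR. In sign, 23 of the 24 were positive, and 16 had no overlap of CPM and were higher with Aconiti, beside 7.94% of all genes. These shares too are descriptive, since the list was chosen with earlier results of these data known. The median log2 fold change was 0.17 over the list. It was 0.46 at 100 µg/mL, where 21 were higher (8.17% of all genes) and none lower, and 0.44 at 500 µg/mL, where 22 were higher (12.3% of all genes) and none lower.

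NQO1, the quinone reductase shared with the AhR list, stood at 729.8, 734.6 and 681.9 CPM with Aconiti against 563.4, 581.1 and 583.5 CPM with Bupleuri. Every Aconiti library was above every Bupleuri library, and the log2 fold change was 0.31 ± 0.05 (SE; adjusted p = 9.16e-05). AKR1B10, an aldo-keto reductase that clears reactive carbonyls, stood at 108.1, 105.8 and 103.5 CPM with Aconiti against 79.7, 85.6 and 84.5 CPM with Bupleuri, a log2 fold change of 0.35 ± 0.05 (SE; adjusted p = 1.9e-05) without overlap. OSGIN1, named for its induction by oxidative stress, stood at 65.3, 64.8 and 63.3 CPM with Aconiti against 43.2, 47.7 and 52.8 CPM with Bupleuri. Its log2 fold change was the largest of the list at 0.43 ± 0.08 (SE; adjusted p = 0.0014), and the call was lost without Bupleuri library 1.

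GCLM, the modifier subunit of the enzyme that makes the first intermediate of glutathione, stood at 68.1, 64.3 and 62.6 CPM with Aconiti against 53.9, 53.1 and 55.5 CPM with Bupleuri (log2 fold change 0.26 ± 0.04 SE, adjusted p = 0.000393). Its catalytic partner GCLC was at 0.10 ± 0.04 (SE) and did not pass (adjusted p = 0.406). TXNRD1, thioredoxin reductase of the cytosol, stood at 263.5, 246.1 and 234.9 CPM with Aconiti against 214.7, 214.2 and 213.6 CPM with Bupleuri (log2 fold change 0.21 ± 0.03 SE, adjusted p = 0.000233). Both genes were without overlap between extracts. SRXN1, which reduces oxidised peroxiredoxins, was at 0.21 ± 0.04 (SE; adjusted p = 0.00454), and GSR, glutathione reductase, at 0.17 ± 0.04 (SE; adjusted p = 0.0122). EPHX1, microsomal epoxide hydrolase, and TKT, transketolase of the pentose phosphate pathway, were both at 0.18 ± 0.04 (SE; adjusted p = 0.0341 for EPHX1 and 0.00892 for TKT). EPHX1 lost its call whichever 1 of the 6 libraries was left out, TKT without Aconiti library 2 or 3 or Bupleuri library 1, GSR without Aconiti library 1 or Bupleuri library 2, and SRXN1 without Aconiti library 1.

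Some widely used NRF2 targets stayed under the threshold at this dose. HMOX1, haem oxygenase, stood at 72.4, 75.4 and 70.7 CPM with Aconiti and 67.0, 62.4 and 62.1 CPM with Bupleuri (log2 fold change 0.19 ± 0.06 SE, adjusted p = 0.238), without overlap. SLC7A11, the cystine importer, overlapped at 59.4, 54.0 and 51.6 CPM with Aconiti and 56.5, 52.6 and 50.7 CPM with Bupleuri, and its log2 fold change of 0.04 (adjusted p = 0.92) compares with 0.85 at 100 µg/mL (adjusted p = 1.01e-13) and 1.47 at 500 µg/mL (adjusted p = 3.56e-24). The exporters ABCC2 and ABCC3 were both at 0.21 ± 0.05 and 0.21 ± 0.06 (SE) and missed the threshold (adjusted p = 0.0524 for ABCC2 and 0.0703 for ABCC3). Of the 9 called members, NQO1, AKR1B10 and GCLM were called under all 15 alternatives, 4 were still called with the 6 libraries alone, and 6 without Aconiti library 1 or without Bupleuri library 1.

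For several of these enzymes the vehicle level lay between the extracts. NQO1 averaged 715.4 ± 29.2 CPM with Aconiti and 576 ± 11 CPM with Bupleuri, beside 666.9 ± 11.3 CPM in vehicle libraries (SD, n = 3 each). Its log2 fold change against vehicle was 0.10 with Aconiti (adjusted p = 0.104) and -0.21 with Bupleuri (adjusted p = 0.00125). AKR1B10 was at 0.07 with Aconiti (adjusted p = 0.249) and -0.27 with Bupleuri (adjusted p = 6.56e-05), and TXNRD1 at 0.08 with Aconiti (adjusted p = 0.0547) and -0.13 with Bupleuri (adjusted p = 0.00562). The other extracts at 20 µg/mL lay at the Bupleuri level and not at that of vehicle: NQO1 averaged between 568.9 CPM (Cimicifugae) and 585.3 CPM (Banhasasim-tang) in these 4 groups. OSGIN1 differed from this, at 0.68 with Aconiti (adjusted p = 3.46e-08) and 0.25 with Bupleuri (adjusted p = 0.0259), both above vehicle. Of the 24 tested NRF2 targets, 12 were higher and 3 lower than vehicle with Aconiti, beside 16.8% and 14.4% of all genes. With Bupleuri 6 were higher and 8 lower, beside 12.6% and 9.34% of all genes. The median log2 fold change of the list against vehicle was 0.14 with Aconiti and -0.03 with Bupleuri.

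Upstream sequences of GCLM (chr1:93909431-93909680, minus strand) and of one start of TXNRD1 (chr12:104286782-104287031, plus strand) are shown, because both genes differed at each of the 3 doses and carry the letters TGACNNNGC, an NRF2-type antioxidant response motif, on one strand; the build is GRCh38.p14 (RefSeq) and capitals mark the match.
GCLM: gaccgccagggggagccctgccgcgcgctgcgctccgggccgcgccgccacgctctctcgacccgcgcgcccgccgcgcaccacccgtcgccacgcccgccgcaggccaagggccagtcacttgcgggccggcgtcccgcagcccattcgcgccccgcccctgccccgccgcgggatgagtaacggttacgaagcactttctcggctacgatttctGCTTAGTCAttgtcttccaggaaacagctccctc
TXNRD1: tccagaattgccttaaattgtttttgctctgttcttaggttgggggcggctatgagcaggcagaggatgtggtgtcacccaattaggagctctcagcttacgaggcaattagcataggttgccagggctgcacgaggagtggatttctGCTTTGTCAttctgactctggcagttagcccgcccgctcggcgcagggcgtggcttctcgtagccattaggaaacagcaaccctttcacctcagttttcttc
The matches start 34 bases before the GCLM start and 102 bases before the TXNRD1 start, both read on the opposite strand to the motif as written. Of all 35116 windows, 13.3% hold TGACNNNGC on either strand. RefSeq windows were found for 44 of the 56 higher genes (69 windows) and 22 of the 26 lower genes (29 windows), and windows of 1 gene can overlap. TGACNNNGC occurred in 18.8% of the windows of higher genes and 10.3% of those of lower genes, and GCGTG in 43.5% and 37.9%.

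**Figure D2:**
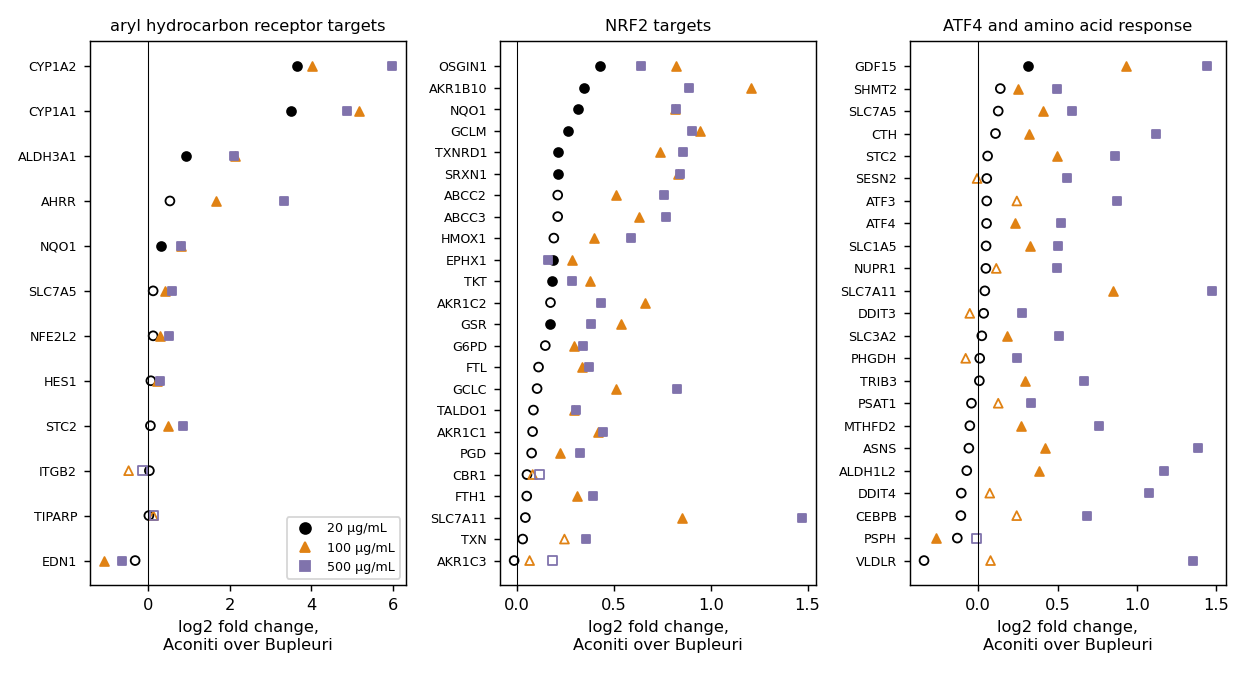
Log2 fold change of Aconiti over Bupleuri for the tested members of 3 lists at 20 µg/mL (black circles), 100 µg/mL (orange triangles) and 500 µg/mL (purple squares); filled symbols passed an adjusted p of 0.05, and the value of CYP1A2 rests on few reads. At 20 µg/mL filled circles number 4 among AhR targets, 9 among NRF2 targets and 1 among ATF4 targets.

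ATF4 drives the amino acid response. Of its 23 tested targets, 1 was higher at 20 µg/mL, 13 at 100 µg/mL and 22 at 500 µg/mL, beside 0.348%, 8.17% and 12.3% of all genes. The 1 was GDF15, a secreted stress cytokine that is also a p53 target, at 203.8, 206.5 and 192.5 CPM with Aconiti against 150.3, 159.5 and 175.5 CPM with Bupleuri. Its log2 fold change was 0.31 ± 0.06 (SE; adjusted p = 0.00249), and the call was lost without Bupleuri library 1. ASNS, asparagine synthetase, stood at 39.6, 37.2 and 39.4 CPM with Aconiti and 39.1, 40.8 and 41.1 CPM with Bupleuri, which overlap. Its log2 fold change of -0.06 (adjusted p = 0.846) compares with 0.42 at 100 µg/mL (adjusted p = 4.77e-07) and 1.38 at 500 µg/mL (adjusted p = 1.58e-25).

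After CYP1A1, AQP3 and SOS1 had the largest fold changes of the named higher genes with a mean of 5 CPM or more. SOS1, the exchange factor that loads RAS with GTP, stood at 161.3, 122.0 and 122.7 CPM with Aconiti against 103.7, 98.7 and 89.2 CPM with Bupleuri. Aconiti library 1 was the highest, all 3 were above every Bupleuri library, and the log2 fold change was 0.47 ± 0.07 (SE; adjusted p = 0.000136), with a lowest value of 0.33 when 1 library was left out. MRAS, a small GTPase of the RAS family, stood at 37.9, 36.3 and 36.8 CPM with Aconiti against 26.5, 29.2 and 27.1 CPM with Bupleuri (log2 fold change 0.42 ± 0.05 SE, adjusted p = 2.19e-08), the second smallest p after CYP1A1. Of 14 listed genes of ERK feedback, SOS1 alone was called at 20 µg/mL, where 0.51% of all genes were called. AQP3, a channel for water and glycerol, stood at 6.15, 6.73 and 6.38 CPM with Aconiti against 4.59, 4.39 and 4.60 CPM with Bupleuri (log2 fold change 0.50 ± 0.08 SE, adjusted p = 0.000393), without overlap, and was the only called member of 6 tested genes of aquaporins and glycerol handling.

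The difference between the extracts grew with dose for both genes. It differed between 500 and 20 µg/mL in 10.2% of all genes, with 5.19% in the higher and 4.98% in the lower direction, and by 2.27 on the log2 scale for AQP3 (adjusted p = 4.36e-22) and 1.69 for SOS1 (adjusted p = 1.39e-17). AQP3 averaged 11.7 ± 0.6 CPM with Aconiti and 4.8 ± 0.5 CPM with Bupleuri at 100 µg/mL, and 62.1 ± 1.5 CPM with Aconiti and 9.1 ± 1.0 CPM with Bupleuri at 500 µg/mL (SD, n = 3 each). SOS1 averaged 247.7 ± 4.1 CPM with Aconiti and 92.6 ± 9.4 CPM with Bupleuri at 100 µg/mL, and 483.9 ± 14.8 CPM with Aconiti and 108.1 ± 8.7 CPM with Bupleuri at 500 µg/mL. The calls of both genes at 20 µg/mL were lost when only the 6 libraries were filtered, scaled and fitted.

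Further genes in the order of their log2 fold change were RGMB, a co-receptor for bone morphogenetic proteins (0.44 ± 0.09 SE, adjusted p = 0.00892), and BMF, a BH3-only protein that promotes apoptosis (0.43 ± 0.08 SE, adjusted p = 0.00292). After them came MBL2, mannose-binding lectin of the complement system (0.39 ± 0.07 SE, adjusted p = 0.000411), and CAVIN2, a coat protein of caveolae (0.38 ± 0.06 SE, adjusted p = 0.000368). HKDC1, a hexokinase, was at 0.36 ± 0.05 (SE; adjusted p = 8.51e-05), SPP1, which encodes osteopontin, at 0.35 ± 0.05 (SE; adjusted p = 2.6e-05) and CPLX2, a complexin of vesicle fusion, at 0.34 ± 0.05 (SE; adjusted p = 8.51e-05). BMF, MBL2, HKDC1, SPP1, CPLX2 and MRAS were called under all 15 alternatives, while RGMB lost its call without Aconiti library 1 and without Bupleuri library 2. SPP1 is a case where vehicle lay nearer to Aconiti: it averaged 592.0 ± 31.1 CPM with Aconiti and 465.4 ± 11.9 CPM with Bupleuri, beside 556.2 ± 7.6 CPM with vehicle (SD, n = 3 each).

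Single members of other lists were called too, where 0.348% of all genes were called higher. HNF4A, a master transcription factor of hepatocytes, was the 1 called of 14 hepatocyte transcription factors, at 456.0, 421.2 and 437.8 CPM with Aconiti against 386.7, 369.4 and 370.9 CPM with Bupleuri (log2 fold change 0.22 ± 0.04 SE, adjusted p = 0.00327). MYC was the 1 called of 26 immediate early genes (0.26 ± 0.05 SE, adjusted p = 0.00619), and SQSTM1, the autophagy receptor p62, the 1 called of 23 genes of autophagy and lysosome (0.15 ± 0.03 SE, adjusted p = 0.00924). CD68, a lysosomal glycoprotein that marks macrophages, stood at 49.6, 49.4 and 48.2 CPM with Aconiti against 37.0, 42.1 and 38.2 CPM with Bupleuri (0.33 ± 0.08 SE, adjusted p = 0.0271). The summed leukocyte list went the other way, at 1042 to 1146 CPM with Aconiti and 1158 to 1209 CPM with Bupleuri, and nearly all of it was LYZ. HNF4A lost its call without Aconiti library 1, and CD68 when any library but Bupleuri library 2 was left out. MYC and SQSTM1 lost theirs when Bupleuri library 1 or 2 or Aconiti library 2 or 3 was left out.

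**Figure D3:**
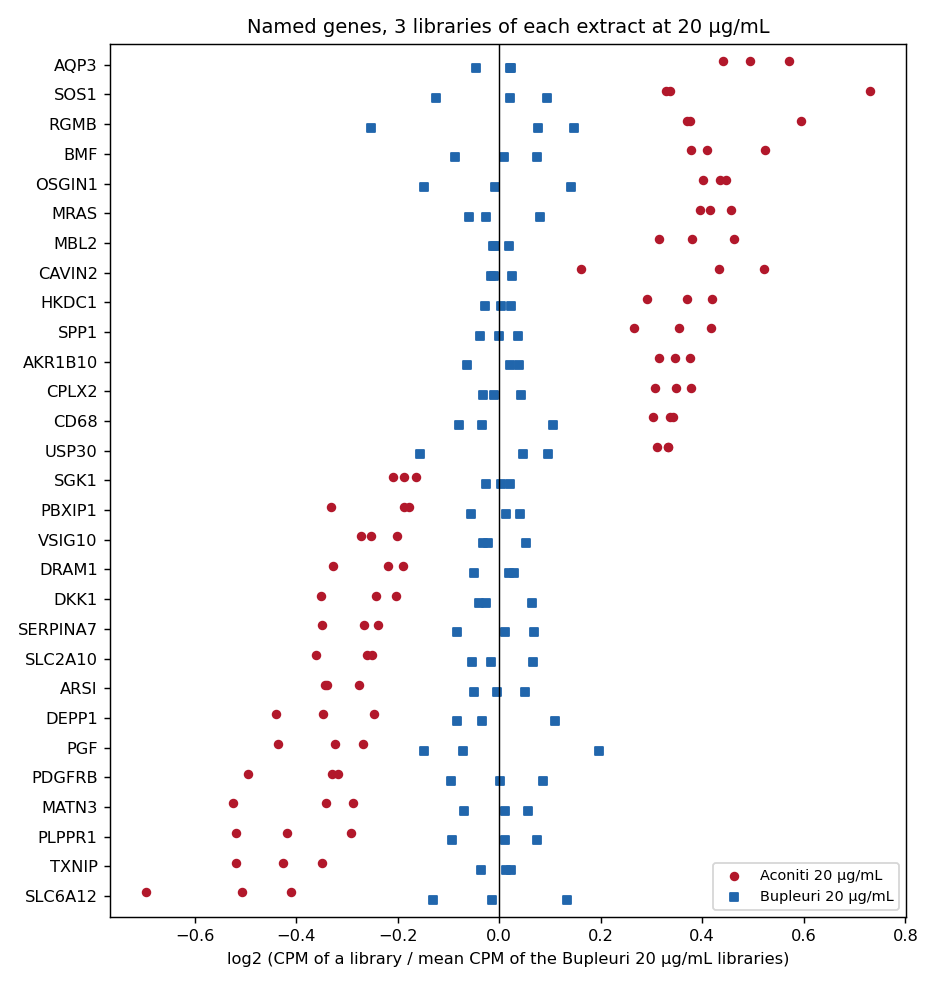
Log2 ratio of each library's CPM to the mean of the Bupleuri 20 µg/mL libraries for the 14 named genes higher with Aconiti after CYP1A1 (top) and the 15 lower (bottom); red circles are the 3 Aconiti libraries and blue squares the 3 Bupleuri libraries. In each of the 29 genes the 3 red circles lie on one side of the 3 blue squares, since absence of overlap was part of the rule for naming.

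Of the named lower genes with a mean of 5 CPM or more, SLC6A12, a betaine and GABA transporter, had the largest fold change. It stood at 5.93, 6.76 and 7.23 CPM with Aconiti against 8.77, 9.51 and 10.54 CPM with Bupleuri. No library overlapped, and the log2 fold change was -0.52 ± 0.10 (SE; adjusted p = 0.00134). It was -0.98 at 100 µg/mL (adjusted p = 9.22e-10) and -1.36 at 500 µg/mL (adjusted p = 1.97e-12). SLC2A10, a glucose transporter of the GLUT family, was at -0.29 ± 0.06 (SE; adjusted p = 0.00473), and its call was lost without Aconiti library 3 or Bupleuri library 3.

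Of 13 tested genes that insulin represses through FOXO1, 2 were lower with Aconiti, beside 0.162% of all genes, and none higher. TXNIP, which binds thioredoxin and restrains glucose uptake, stood at 19.8, 21.1 and 22.2 CPM with Aconiti against 27.6, 28.6 and 28.8 CPM with Bupleuri (log2 fold change -0.43 ± 0.10 SE, adjusted p = 0.0313). DEPP1, a FOXO target, stood at 12.9, 13.8 and 14.8 CPM with Aconiti against 16.6, 18.97 and 17.2 CPM with Bupleuri (log2 fold change -0.33 ± 0.06 SE, adjusted p = 0.00292). Neither gene overlapped between extracts. The call for TXNIP was lost whichever 1 of the 6 libraries was left out, and the call for DEPP1 without Bupleuri library 2. IGFBP1, the secreted IGF-binding protein of the same list, did not pass (0.16 ± 0.10 SE, adjusted p = 0.715), and at 500 µg/mL it was higher with Aconiti by 2.13 (adjusted p = 1.33e-24). TXNIP averaged 21.0 ± 1.2 CPM with Aconiti and 28.3 ± 0.6 CPM with Bupleuri, beside 39.3 ± 13.7 CPM with vehicle (SD, n = 3 each). The vehicle libraries stood at 32.9, 55.1 and 30.0 CPM, so vehicle library 2 made most of that spread. Vehicle library 2 also held 53 reads of CYP1B1, against 2 and 0 in vehicle libraries 1 and 3. Its mitochondrial share was 7.71% of counts, against 9.2% and 9.13%.

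Of 14 acute phase genes 1, FGA, was lower with Aconiti. Of 24 genes of coagulation and complement 1, C5, was lower and 1, MBL2, was higher. Over all genes 0.162% were lower and 0.348% higher. SERPINA7, thyroxine-binding globulin, stood at 92.9, 98.4 and 100.2 CPM with Aconiti against 111.6, 119.2 and 124.0 CPM with Bupleuri (log2 fold change -0.28 ± 0.05 SE, adjusted p = 0.00108). FGA, the fibrinogen alpha chain, stood at 829.9, 834.0 and 796.8 CPM with Aconiti against 914.7, 917.3 and 923.6 CPM with Bupleuri, without overlap (log2 fold change -0.16 ± 0.03 SE, adjusted p = 0.0043). Its log2 fold change was -0.68 at 100 µg/mL (adjusted p = 1.36e-21) and -1.50 at 500 µg/mL (adjusted p = 7.29e-36). C5, complement component 5, was at -0.18 ± 0.05 (SE; adjusted p = 0.045), and ACSM3, a mitochondrial medium-chain acyl-CoA synthetase, at -0.18 ± 0.04 (SE; adjusted p = 0.0219) and at -1.75 at 500 µg/mL (adjusted p = 1.58e-33). SERPINA7 was called under all 15 alternatives, FGA lost its call without Aconiti library 3, ACSM3 when Bupleuri library 1 or 2 or Aconiti library 2 was left out, and C5 when any library but Aconiti library 1 was.

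The other named lower genes were PLPPR1, a phospholipid phosphatase-related membrane protein (-0.40 ± 0.08 SE, adjusted p = 0.00327), and MATN3, the matrix protein matrilin-3 (-0.38 ± 0.07 SE, adjusted p = 0.000928), which was called under all 15 alternatives. PDGFRB, a receptor of platelet-derived growth factor that marks fibroblasts and pericytes, stood at 7.28, 8.17 and 8.23 CPM with Aconiti against 9.61, 10.27 and 10.89 CPM with Bupleuri (-0.37 ± 0.08 SE, adjusted p = 0.014). It made up most of the summed fibroblast markers, 8.06 to 8.98 CPM with Aconiti and 10.7 to 11.7 CPM with Bupleuri, while COL1A2 and DCN were at 0. In bulk RNA, fewer cells of a type and less RNA per cell cannot be told apart. PGF, placental growth factor, was at -0.34 ± 0.08 (SE; adjusted p = 0.0449), ARSI, an arylsulfatase, at -0.32 ± 0.07 (SE; adjusted p = 0.014) and DKK1, a secreted WNT inhibitor, at -0.26 ± 0.06 (SE; adjusted p = 0.0159). DRAM1, a lysosomal membrane protein, was at -0.25 ± 0.05 (SE; adjusted p = 0.0108) and SGK1, a kinase induced by serum and glucocorticoid, at -0.19 ± 0.05 (SE; adjusted p = 0.0347). VSIG10 was at -0.24 (adjusted p = 0.0254) and PBXIP1 at -0.23 (adjusted p = 0.0398). At 500 µg/mL VSIG10 was at -0.05 (adjusted p = 0.599). The calls for PGF, ARSI, DKK1, DRAM1, PDGFRB, SGK1, VSIG10 and PBXIP1 were each lost in at least 3 of the 6 fits that left out 1 library. That for PLPPR1 was lost without Aconiti library 1.

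Some called genes were under 1 CPM or cannot be counted apart from near-identical copies. RIMBP3B had 0, 0.06 and 0 reads with Aconiti and 27.59, 0 and 13.25 reads with Bupleuri, and it has close paralogs that share reads, so its lower value is uncertain. SMN1 is nearly identical to SMN2, and its higher value (0.29 ± 0.07 SE, adjusted p = 0.0473) is likewise uncertain. LRRC25, a leucine-rich repeat membrane protein, had 28, 31 and 33 reads with Aconiti against 10, 6 and 12 reads with Bupleuri (log2 fold change 1.74 ± 0.29 SE, adjusted p = 0.000301), without overlap, and was at 2.66 at 100 µg/mL (adjusted p = 1.13e-10) and 2.99 at 500 µg/mL (adjusted p = 5.16e-15); DESeq2 did not call it at 20 µg/mL. CCDC198 stood at 0.26, 0.18 and 0.39 CPM with Aconiti against 0.84, 0.68 and 0.82 CPM with Bupleuri (adjusted p = 0.0167). These 4 genes fall outside the rule for naming and were chosen after their values were seen.

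Of 41 lists, 24 had no called member at this dose; with 0.51% of all genes called, a list of this size would mostly hold none, so these counts say nothing particular about the lists. Among them were 25 genes of cholesterol synthesis, 13 of fatty acid synthesis, 21 of glycolysis, 21 of the hypoxia response, 25 of mitosis, 27 of DNA replication, 14 of endoplasmic reticulum chaperones, 10 of metallothioneins and zinc response and 8 of the urea cycle (tested members). The medians of the 24 lists lay between -0.09 and 0.10 on the log2 scale. At 500 µg/mL all 25 mitosis genes and 16 of the 27 replication genes were lower with Aconiti, beside 11.2% of all genes. A median of 0.10 over 15 mitochondrially encoded genes came with no call. At an unadjusted p of 0.05, 1356 genes (8.43%) passed at 20 µg/mL, a share that includes passes by chance. Size alone did not separate called from uncalled genes. By log2 fold change, AHRR at 0.54 was not called and SQSTM1 at 0.15 was. A gene without a call at this dose may still differ.

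The genes called at 20 µg/mL were for the most part called again at higher doses. The levels compared at 100 and 500 µg/mL come from other libraries, but all doses share the spread estimated in 1 model, so the calls are not independent of each other. At 100 µg/mL 1315 genes were higher (8.17%) and 1001 lower (6.22%) with Aconiti, and at 500 µg/mL 1975 were higher (12.3%) and 1802 lower (11.2%). Of the 56 higher genes, 51 were also higher at 100 µg/mL, which is 91.1% of the 56 and 3.88% of the list at that dose, and 52 at 500 µg/mL (92.9% of the 56 and 2.63% of that list). Of the 26 lower genes, 22 were lower at 100 µg/mL (84.6% and 2.2%) and 21 at 500 µg/mL (80.8% and 1.17%). At all 3 doses, 49 genes were higher and 21 lower. The median log2 fold change of the 56 was 0.30, 0.51 and 0.56 at 20, 100 and 500 µg/mL, and that of the 26 was -0.29, -0.62 and -0.59.

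**Figure D4:**
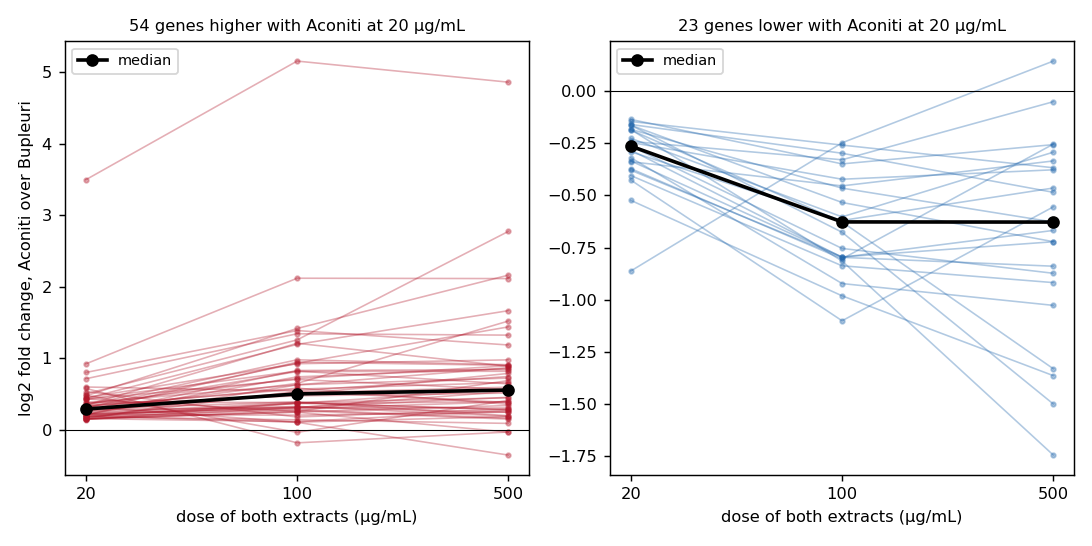
Log2 fold change of Aconiti over Bupleuri at 20, 100 and 500 µg/mL for 54 genes higher (left) and 23 lower (right) at 20 µg/mL; each thin line is 1 gene, the thick line is the median, and 5 called genes with a mean under 1 CPM are left out. The medians run 0.29, 0.50 and 0.56 on the left and -0.26, -0.63 and -0.63 on the right.

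USP30, a deubiquitinase of the mitochondrial outer membrane, was the 1 gene that passed with the opposite sign at another dose. It stood at 16.2, 16.0 and 16.2 CPM with Aconiti against 13.8, 13.3 and 11.6 CPM with Bupleuri at 20 µg/mL (log2 fold change 0.32 ± 0.07 SE, adjusted p = 0.0159). At 100 µg/mL it was at 0.10 (adjusted p = 0.406) and at 500 µg/mL at -0.35 (adjusted p = 0.0004), where it averaged 10.7 ± 0.5 CPM with Aconiti and 13.7 ± 0.8 CPM with Bupleuri (SD, n = 3 each). Its call at 20 µg/mL was lost when any 1 Aconiti library or Bupleuri library 3 was left out.

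The 4 other extracts at 20 µg/mL come from other title sets. In 55 of the 56 higher genes the Aconiti mean was above the means of all 4 other extracts, and in 26 of the 26 lower genes it was below all 4. The Bupleuri mean lay within the range of these 4 extracts in 39 of the 56 and in 16 of the 26. These counts describe genes picked for a difference between Aconiti and Bupleuri and carry no test. Aconiti library 1 was the most extreme of its 3 in 32 of the 56 higher and 16 of the 26 lower genes. The median transcript GC content was 52.8% over the higher genes and 46.6% over the lower genes, beside 48.6% over all tested genes.

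Against vehicle both extracts showed many more calls, 5028 genes (31.2%; 16.8% higher and 14.4% lower) with Aconiti and 3532 (21.9%; 12.6% higher and 9.34% lower) with Bupleuri at 20 µg/mL. With a GC trend removed the counts were 2947 with Aconiti and 1262 with Bupleuri, and 1978 of the 5028 and 860 of the 3532 genes were still called, 32 and 8 of them with the opposite sign. Both comparisons share the vehicle libraries, which have another set code in their titles. For the leading genes the values against vehicle were as follows, each as a log2 fold change. SOS1 was at 0.47 with Aconiti (adjusted p = 5.02e-06) and -0.01 with Bupleuri (adjusted p = 0.965), and AQP3 at 0.57 with Aconiti (adjusted p = 2.25e-06) and 0.07 with Bupleuri (adjusted p = 0.702). MRAS was at 0.50 with Aconiti (adjusted p = 1.27e-10) and 0.07 with Bupleuri (adjusted p = 0.295), and SLC6A12 at -0.46 with Aconiti (adjusted p = 0.000245) and 0.06 with Bupleuri (adjusted p = 0.707). In these 4 genes the Bupleuri libraries were near vehicle, unlike NQO1, AKR1B10 and SPP1, in which Bupleuri was lower than vehicle.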

How the data were processed

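Per the labels' protocols, HepG2 total RNA was made into stranded mRNA libraries with an MGI directional kit and read as paired ends on an MGI instrument. Per the submitters' processing notes, FastQC 0.11.9, Trim Galore 0.6.5, STAR 2.7.3a and RSEM 1.3.3 were used with GRCh38; the annotation release is not given in the sources used here. The authors deposited a table of RSEM expected counts, which are estimated and unscaled: 24.5% of nonzero values are not whole (tolerance 1e-06). It holds 60675 genes, and 207 of its columns belong to no sample here and were not used. Columns were joined to samples by the code in each title. Symbols came from GENCODE 29, which holds 57055 of the genes; the other 3620 hold 0.0398% of counts.

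Expected counts were rounded. The 57 replicated libraries (19 groups of 3) entered 1 edgeR 4.0.16 quasi-likelihood model (R 4.3.3, limma 3.58.1) with filterByExpr (16093 genes tested) and TMM factors between 0.898 and 1.04; replicates varied by 4.86% (common biological coefficient of variation). Libraries held 17598646 to 30451640 counts, which limits genes with few reads most. A gene was called at a Benjamini-Hochberg adjusted p under 0.05 over all genes; every adjusted p in the text comes from this model. Standard errors were derived from the fold change and its F statistic, so they rest on the spread over the 57 libraries. CPM are counts relative to the TMM-scaled library total. Levels of different genes are not comparable, since CPM are not per length.

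The comparison, the 41 gene lists and the naming rule were chosen with earlier results of these data known. The rule names the 15 highest and 15 lowest called protein-coding genes with a mean of 5 CPM or more and no overlap between libraries, and up to 4 called members of each list. The text names fewer in places; it also names all 9 called NRF2 targets and some uncalled list members, chosen after their values were seen. Alternatives were RLE size factors, DESeq2 1.42.0, no filter on low counts, a filter at a mean of 1 CPM, a replicate block, removal of a GC trend (with and without the block), only the libraries compared, only the title set, and each library left out. The fit was tested on counts simulated with its own dispersion estimates and no replicate effects, so that test cannot show calibration on these data. None of the 6 replicate pairs at 20 µg/mL of these extracts agreed within sampling noise; other groups were not checked. The series description names wortmannin and 2% DMSO controls; the labelled vehicle is 0.1% DMSO, and wortmannin was not analysed here. Bojungikgi-tang had 1 library per dose and stayed out of the model.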

Additional observations from a re-analysis of the deposited data

Results flagged for a closer look

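The difference between Aconiti and Bupleuri itself differed between 500 and 20 µg/mL in 1636 genes (10.2%) by the interaction test of the same edgeR model. For 4 genes named in the report, the difference at 500 µg/mL minus the difference at 20 µg/mL on the log2 scale was 2.27 for AQP3 (adjusted p = 4.36e-22), 1.69 for SOS1 (adjusted p = 1.39e-17), 1.36 for CYP1A1 (adjusted p = 7.26e-10) and -0.68 for USP30 (adjusted p = 4.86e-06). USP30 is the gene called with opposite signs at both doses, and the other 3 were singled out after their values were seen. The interaction shares the 20 µg/mL libraries with the main comparison.

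Bojungikgi-tang, which entered no comparison, had CYP1A1 levels above all 3 vehicle libraries: 17, 24.5 and 90.2 CPM (by library total) at 20, 100 and 500 µg/mL, in 1 library per dose, against 11.5 to 14.2 in vehicle. There is no replicate check of these values.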

How the results depend on the processing

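The count of 82 called genes (56 higher and 26 lower) at 20 µg/mL changed with the processing. It was 189 (118 and 71) with no filter on low counts, 185 (124 and 61) with a replicate block, 127 with a GC trend removed (45 lower), 210 (131 and 79) with the GC trend removed and the replicate block, 38 (31 and 7) with only the libraries compared and 47 (34 and 13) with only title set 6. Leaving out 1 library gave 38 to 56 genes, 28 to 43 higher and 10 to 16 lower. Of the 82 genes, 60 were still called with no filter, 82 with the block, 80 with the GC trend removed and 81 with both. With only the libraries compared 26 of the 82 were still called, and 44 with only title set 6. DESeq2 called 115, of which 73 were among the 82. Replicate numbers were not taken as pairs, because deviations of same-numbered Aconiti and Bupleuri libraries correlated across genes at 0.23, -0.09 and 0.22; 1 of 3 Aconiti and 1 of 3 Bupleuri libraries correlated best with its own number. Over all groups of the title set, 38 of 45 same-numbered pairs were positive (-0.21 to 0.43). The count at 100 µg/mL was 1178 with only the libraries compared. Against vehicle, removal of the GC trend gave 2947 genes with Aconiti and 1262 with Bupleuri, of which 1978 and 860 were among the main calls, 32 and 8 of them with the opposite sign; with the block added Bupleuri gave 1819. Leaving out 1 library gave 1689 to 2112 genes at 100 µg/mL, 3069 to 3293 at 500 µg/mL, 1338 to 1534 in the interaction, 3747 to 4600 for Aconiti and 2349 to 3263 for Bupleuri against vehicle; the lowest of these, without Bupleuri library 3, is under the main 3532 by over 1.5 times. Signs turned for AHR, at -0.0068 without Aconiti library 1 and -0.00057 without Bupleuri library 3, and for TIPARP, at -0.0047 without Aconiti library 2 and -0.019 without Bupleuri library 3; the highest values so obtained were 0.0695 for AHR and 0.0640 for TIPARP, and neither gene was called. The causes were not tested. Genes with few reads, such as CYP1A2, AHRR and ALDH3A1, are limited by depth.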
